A study of Mus musculus with 12 samples.

Results

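Integrins and laminins were measured across the cells of an astrocyte reprogramming experiment. Integrins are receptors made of 1 alpha and 1 beta subunit that span the cell membrane and tie the matrix outside to the cytoskeleton inside. Laminins are trimers of an alpha, a beta and a gamma chain, form the core sheet of basement membranes and are bound by some of these receptors. In brain, glia and neural stem cells contact laminin around blood vessels and at the brain surface, and in the early embryo laminin chains build the first basement membranes. The genes described are the 36 whose symbol names an integrin alpha subunit (18), an integrin beta subunit (8) or a laminin alpha (5), beta (3) or gamma (2) chain, out of 19938 genes on the arrays. The rule used the symbol and no measured value, although the gene family was picked with earlier results of these data known. The brightest probe set stands for each gene, a choice that arose only for Itgad.

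The 12 arrays fell into 5 groups of mouse cells. Astrocytes (3 arrays) were grown from cortex of postnatal day 3 mice in 10% fetal bovine serum and sorted as GFP-negative. The day 6 cells (3 arrays) were such astrocytes given retroviruses for Oct4, Klf4, Sox2 and c-Myc and sorted as Sox1-GFP-positive on day 6 in stem cell medium with 15% serum and 1000 U/ml leukaemia inhibitory factor (LIF). Neural stem cells (2 arrays) came from embryonic telencephalon of day 12.5 to 14.5 and grew with 20 ng/ml each of basic FGF and EGF. Induced pluripotent stem cells (iPSCs) from astrocytes (2 arrays) and from embryonic fibroblasts, MEFs (2 arrays, the line iPS-MEF-Ng-20D-17), grew on MEF feeder cells with 1500 U/ml LIF and 15% serum or serum replacement. All groups but the last carried the Sox1-GFP reporter (Sox1+/-), and the last carried Nanog-GFP-IRES-Puro. Source age, medium, sort and feeder layer go with the groups and cannot be told apart from them. The day 6 group holds sorted cells only, so a change in the cells cannot be told apart from the choice of cells made by the sorter. In these bulk samples, fewer cells of a type and less RNA per cell also cannot be told apart.

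The labels were checked against marker genes, counted as above when brighter than the median of all probe sets on the array. Of 9 astrocyte markers, 8 were above the array median in each astrocyte array and 2 to 3 in the day 6 arrays. The 9 pluripotency markers were all above it in every iPSC array, against 3 to 4 in the day 6 arrays and 0 to 2 in the astrocyte arrays. All 9 neural stem cell markers were above it in the neural stem cell arrays and also in the astrocyte arrays. In each day 6 array 7 of these 9 were above it, and in the iPSC arrays 5 to 6. Their summed linear intensity was nevertheless lowest at day 6, at 1956 to 2061. It was 19031 to 19732 in neural stem cells and 16034 to 18262 in astrocytes. In astrocyte iPSCs it was 2818 to 2892, and in MEF iPSCs 2909 to 2965. Of the astrocyte markers, 6 were above the array median in the neural stem cell arrays and 3 to 4 in the iPSC arrays. These counts thus separate the groups only in part. Levels below are log2 intensities, in which the array medians lay between 6.61 and 6.71, and levels of different genes are not compared. Fold changes are log2 differences with the standard error of limma's fit. A gene was called, or said to rise or fall, at a Benjamini-Hochberg adjusted p under 0.05 over all genes with a log2 fold change of 1 or more in either direction (the fold limit). Replicates are described as biological, but no label ties an array to animals or a culture of its own, and some of the spread behind the p-values may be technical. The sort gene Sox1 was at 8.27 to 8.53 in day 6 arrays and 7.97 to 8.25 in astrocyte arrays. It was at 8.20 and 8.32 in neural stem cell arrays and at 7.98 to 8.01 in the iPSC arrays. Its level thus differed little between all groups and says little about the sort.

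Between astrocytes and day 6 cells, laminin chains went in different directions while the integrins that changed mostly fell. Of the 36 genes 12 were called (33.3%, against 16.9% of all genes). Among them 3 rose (8.33%, against 6.75% of all genes) and 9 fell (25.0%, against 10.1%). The 3 that rose were Lama4, Itgb4 and Lamb1. Those that fell were Itgb8, Itga1, Itga3, Itgav, Itga7, Lamb2, Itgb1, Itgb5 and Itga5. The median fold change was -0.03 over the 36 genes and 0.04 over all genes. Most of the 36 genes thus lay inside the limits in this comparison.

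Lama4 encodes a laminin alpha chain known from blood vessel walls, nerve, muscle and mesenchyme. Its levels in the day 6 arrays were 9.89, 9.94 and 9.91. In astrocytes they were 6.33, 6.30 and 6.46, in neural stem cells 6.50 and 6.15, in astrocyte iPSCs 6.32 and 7.28, and in MEF iPSCs 6.67 and 6.59. Every day 6 array was thus above every other array, by more than 2 log2 units. The fold change against astrocytes was 3.55 ± 0.19 (adjusted p = 2.16e-08), and against neural stem cells 3.59 ± 0.21 (adjusted p = 1.42e-07). In astrocyte iPSCs it was lower than at day 6, with a change of -3.12 ± 0.21 (adjusted p = 7.55e-07), with -3.59 without replicate 2 of the iPSCs and -2.64 without replicate 1. Of 9 endothelial markers, 1 was called higher in day 6 cells than in astrocytes, the receptor gene Tek (6.78 to 7.10 against 5.49 to 5.66), and 0 were lower. In day 6 arrays 1 to 2 of the 9 were above the array median, and in astrocyte arrays 0 to 2. Summed endothelial marker intensity was 661 to 708 in day 6 arrays and 595 to 663 in astrocyte arrays. Of the single markers, Cdh5 and Emcn were at 6.27 and 5.10 at most in the day 6 arrays, below every array median. Cldn5 was at 6.49 to 6.82 in the day 6 arrays and at 6.42 to 6.74 in the astrocyte arrays. Whether any of the 9 markers bears on Lama4 was not tested.

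Lama1 is the alpha chain of the earliest embryonic laminin and of Reichert's membrane. The astrocyte arrays stood at 6.31, 6.44 and 6.59, the neural stem cell arrays at 6.87 and 6.84 and the day 6 arrays at 7.38, 7.40 and 7.48. Astrocyte iPSCs were at 8.41 and 8.63 and MEF iPSCs at 9.71 and 9.71. The 5 groups did not overlap, with day 6 cells between neural stem cells and both iPSC groups. Day 6 cells differed from astrocytes by 0.97 ± 0.08 (adjusted p = 1.03e-06), just short of the fold limit, and passed it without astrocytes replicate 3 (1.05) or with 16 subtracted from every value before log2 (1.12). Lama1 rose in astrocyte iPSCs against astrocytes by 2.08 ± 0.09 (adjusted p = 5.02e-09) and against day 6 cells by 1.10 ± 0.09 (adjusted p = 3.76e-06). The last call was lost without iPSC replicate 2 (0.995).

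Lama2, the alpha chain of muscle, peripheral nerve and brain vessel laminin, was highest in astrocytes, at 7.29, 7.22 and 7.16. It was at 6.19, 6.42 and 6.20 in day 6 cells, 5.79 and 5.97 in neural stem cells, 6.15 and 6.30 in astrocyte iPSCs, and 5.95 and 6.07 in MEF iPSCs. No array of another group reached the lowest astrocyte array, and all of them lay under their array medians. Lama2 fell in neural stem cells (-1.34 ± 0.09, adjusted p = 3.57e-07). The differences in day 6 cells (-0.95 ± 0.08) and astrocyte iPSCs (-0.997 ± 0.09, adjusted p = 2.47e-06) stayed just inside the fold limit, and each passed it when 16 was subtracted from the values before log2 (-1.13 and -1.18). The day 6 difference was also called without day 6 replicate 2 (-1.03) and after cyclic loess (-1.005). The iPSC difference was also called without astrocytes replicate 3 (-1.03) or iPSC replicate 2 (-1.07), after cyclic loess (-1.02) and with arrays centred on the median (-1.002).

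Lama5 encodes an alpha chain widespread in epithelia, vessels and pluripotent cells. Its levels were 9.52, 9.59 and 9.33 in astrocytes, 8.84, 8.52 and 8.65 in day 6 cells, 8.09 and 7.63 in neural stem cells, 9.31 and 9.30 in astrocyte iPSCs, and 8.85 and 8.76 in MEF iPSCs. The neural stem cell arrays were the lowest, and the fall against astrocytes was -1.62 ± 0.13 (adjusted p = 1.39e-06). Day 6 cells lay -0.81 ± 0.12 from astrocytes and 0.81 ± 0.13 from neural stem cells, neither of them past the fold limit. Without neural stem cell replicate 1 the latter difference was 1.04 and was called. Lama3, the alpha chain of skin and other epithelia, was called in no comparison and ranged from 5.91 to 6.76 over the arrays.

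The laminin beta chains Lamb1 and Lamb2 can take the same place in a trimer, and in day 6 cells against astrocytes Lamb1 rose while Lamb2 fell. In neural stem cells against astrocytes both differences were negative (-0.49 for Lamb1, not called, and -2.72 for Lamb2), and in day 6 cells against neural stem cells both were positive (1.64 and 0.71, the latter not called). Lamb1, the beta chain of embryonic basement membranes, was at 7.57, 7.75 and 7.62 in astrocytes and at 8.77, 8.94 and 8.69 in day 6 cells. It was at 7.10 and 7.22 in neural stem cells, 9.53 and 9.89 in astrocyte iPSCs, and 10.20 and 10.18 in MEF iPSCs. No 2 groups overlapped, and the order ran from neural stem cells through astrocytes and day 6 cells to the iPSCs. Lamb1 rose by 1.15 ± 0.10 in day 6 cells against astrocytes (adjusted p = 1.32e-06), by 1.64 ± 0.11 against neural stem cells (adjusted p = 5.00e-07), and by 2.06 ± 0.11 in astrocyte iPSCs against astrocytes (adjusted p = 2.52e-08). Astrocyte iPSCs stood 0.91 ± 0.11 above day 6 cells, which was not past the fold limit and was called without iPSC replicate 1 (1.09).

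Lamb2, the beta chain of synaptic, glomerular and vessel laminin, was at 10.31, 10.43 and 10.42 in astrocytes and at 8.30, 8.42 and 8.43 in day 6 cells. Neural stem cells were at 7.75 and 7.59, astrocyte iPSCs at 7.32 and 7.33, and MEF iPSCs at 7.51 and 7.34. Astrocytes were far above all other arrays and day 6 cells came next, without overlap. Against astrocytes the changes were -2.00 ± 0.07 in day 6 cells (adjusted p = 1.34e-09), -2.72 ± 0.08 in neural stem cells (adjusted p = 7.43e-10) and -3.06 ± 0.08 in astrocyte iPSCs (adjusted p = 1.42e-10). These 3 comparisons share the astrocyte arrays. Lamb2 was lower in astrocyte iPSCs than in day 6 cells by 1.06 on the log2 scale (-1.06 ± 0.08, adjusted p = 2.09e-06). Lamb3, the beta chain of epithelial laminin, was called in no comparison (6.23 to 6.70 over the arrays).

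The start-site windows of these paralogues are shown because the genes went in opposite directions in day 6 cells against astrocytes. Each covers 250 bases before to 50 after the start, from RefSeq on GRCm38.p6. Windows on 1 chromosome and those not of the full 300 bases were left out. Among the rest, windows of 23 of the 36 genes were found. The Lamb1 window is chr12:31265043-31265342 on the plus strand and the Lamb2 window chr9:108479612-108479911 on the plus strand. Capitals mark matches, on either strand, to GGGCGG (the GC box), CCAAT (the CCAAT box), TATAAA (the TATA box), TGANTCA (the AP-1 site) or ATGCAAAT (the octamer).
Lamb1: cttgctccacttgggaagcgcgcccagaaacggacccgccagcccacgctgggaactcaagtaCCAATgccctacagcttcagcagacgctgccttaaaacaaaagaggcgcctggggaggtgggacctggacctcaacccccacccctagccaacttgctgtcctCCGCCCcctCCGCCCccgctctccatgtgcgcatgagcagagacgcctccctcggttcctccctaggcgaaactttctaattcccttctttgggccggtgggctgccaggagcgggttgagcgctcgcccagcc
Lamb2: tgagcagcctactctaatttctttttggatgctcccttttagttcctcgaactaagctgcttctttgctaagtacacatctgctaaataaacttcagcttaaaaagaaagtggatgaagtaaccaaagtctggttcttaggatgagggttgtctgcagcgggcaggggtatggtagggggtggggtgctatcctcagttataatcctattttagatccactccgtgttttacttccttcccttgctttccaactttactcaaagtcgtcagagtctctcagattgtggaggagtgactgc
The Lamb1 window held 2 GC boxes and 1 CCAAT box and had a GC content of 63.7%. In the Lamb2 window 0 of the 5 motifs matched and the GC content was 44.0%, against a median of 52.7% over the 32851 windows searched. The GC box was found in 35.7% of the windows searched and 12 of the 26 windows of these genes. The CCAAT box was found in 37.4% and 4 of 26. The other shares were 13.6% and 0 of 26 for the TATA box, 7.81% and 3 of 26 for the AP-1 site, and 1.74% and 0 of 26 for the octamer. Matches printed do not overlap each other. These are letter matches in short windows and no measurement of binding.

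Lamc1, the gamma chain shared by most laminins, was at 10.16, 10.23 and 9.96 in astrocytes, 10.31, 10.44 and 10.47 in day 6 cells, 10.28 and 10.32 in astrocyte iPSCs, and 10.58 and 10.50 in MEF iPSCs. Neural stem cells alone were lower, at 9.10 and 9.16. Day 6 cells exceeded neural stem cells by 1.28 ± 0.09 (adjusted p = 4.50e-07). The difference of neural stem cells from astrocytes was -0.99 ± 0.09 (adjusted p = 2.05e-06), just inside the fold limit. It was called without neural stem cell replicate 2 (-1.02), without astrocytes replicate 3 (-1.07), after cyclic loess between arrays (-1.23) and with 16 subtracted (-1.01). Lamc3, a gamma chain of brain, retina and other tissues, was called in no comparison and lay between 6.71 and 7.12.

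**Figure D1:**
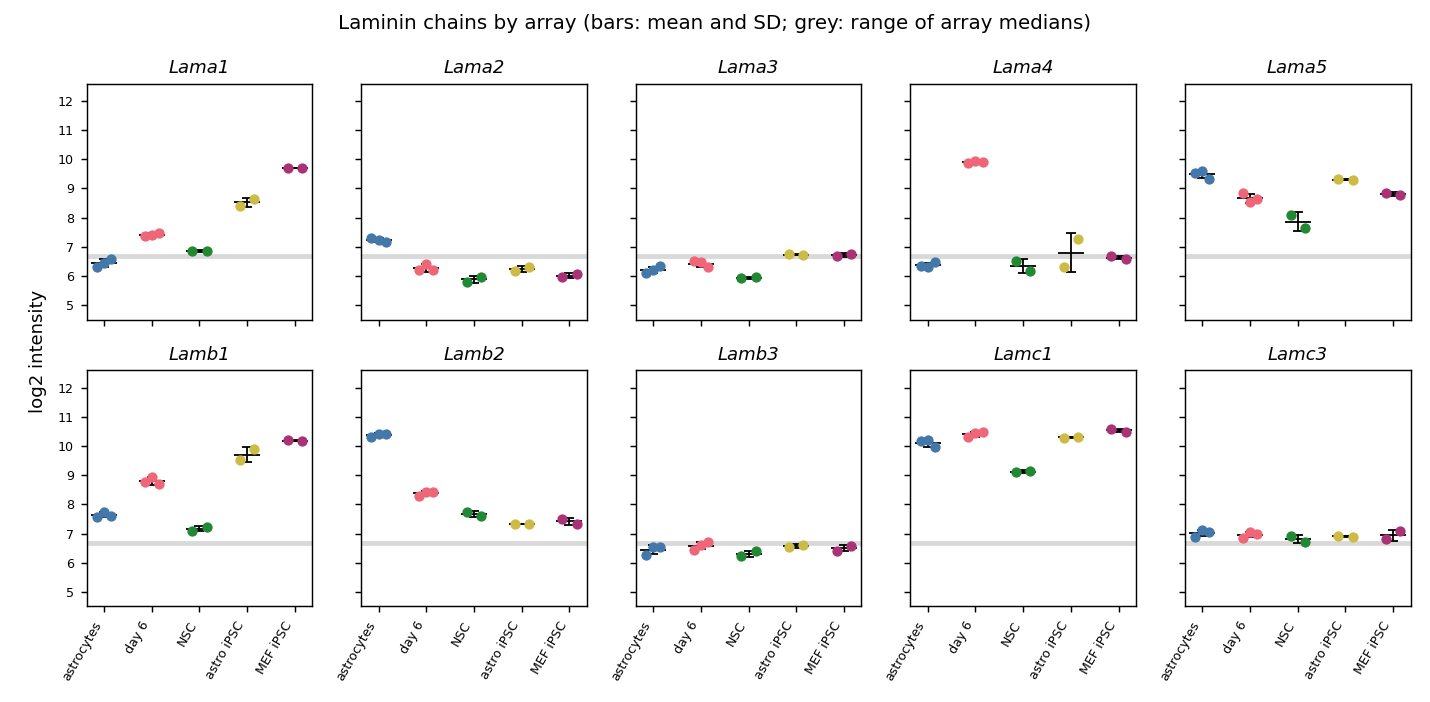
Log2 intensity (vertical axis) of the 10 laminin chains in each array (points), with group mean and SD (bars) and the range of array medians (grey band). Lama4 is high in the 3 day 6 arrays only, Lamb2 is highest in astrocytes, and Lama1 and Lamb1 are highest in the iPSC groups.

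Among the integrins, the shared subunit Itgb1, partner of most alpha subunits, was bright in every array and brightest in astrocytes. It was at 11.998, 11.91 and 11.98 there, at 10.70, 10.68 and 10.65 in day 6 cells, 10.99 and 10.79 in neural stem cells, 9.83 and 9.94 in astrocyte iPSCs, and 10.17 and 10.17 in MEF iPSCs. The iPSC arrays were the lowest. Against astrocytes it fell by 1.28 ± 0.07 in day 6 cells (adjusted p = 1.66e-08), by 1.07 ± 0.07 in neural stem cells (adjusted p = 2.97e-07) and by 2.08 ± 0.07 in astrocyte iPSCs (adjusted p = 9.76e-10). The neural stem cell call was lost without their replicate 2 (-0.97).

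Of the laminin receptor subunits Itga3, Itga6, Itga7 and Itgb4, 1 rose and 2 fell in day 6 cells against astrocytes, where 6.75% of all genes rose and 10.1% fell. Itgb4 pairs with Itga6 in the hemidesmosomes that fix epithelial cells to laminin. Its day 6 levels were 9.31, 9.13 and 9.05. The astrocyte arrays were at 6.82, 6.90 and 7.05, neural stem cells at 6.63 and 6.80, astrocyte iPSCs at 6.91 and 7.20, and MEF iPSCs at 7.12 and 7.21. As for Lama4, every day 6 array was above all others, and the remaining arrays lay between 6.63 and 7.21. The change was 2.24 ± 0.10 against astrocytes (adjusted p = 5.73e-09), 2.45 ± 0.11 against neural stem cells (adjusted p = 2.11e-08) and -2.11 ± 0.11 in astrocyte iPSCs against day 6 cells (adjusted p = 1.15e-07).

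Itga6, the alpha partner of Itgb4, was expressed in all groups, with 9.02 to 9.48 in astrocytes, 9.90 to 10.10 in day 6 cells, 10.49 and 9.78 in neural stem cells, 9.24 and 8.87 in astrocyte iPSCs, and 9.63 and 9.63 in MEF iPSCs. It was called in no comparison. The nearest were astrocyte iPSCs against day 6 cells (-0.93 ± 0.20, adjusted p = 0.00365; called at -1.12 without iPSC replicate 1) and neural stem cells against astrocytes (0.82 ± 0.20, adjusted p = 0.00466; called at 1.17 without neural stem cell replicate 2). Day 6 cells and astrocytes did not overlap and differed by 0.67 ± 0.18.

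Itga3, a receptor subunit for epithelial and vessel laminins, was at 10.66, 11.01 and 10.21 in astrocytes and 8.59, 8.14 and 8.03 in day 6 cells. Neural stem cells had 6.56 and 6.73, astrocyte iPSCs 7.84 and 7.77, and MEF iPSCs 8.43 and 8.26. Astrocytes were the highest and neural stem cells the lowest, near the array medians. The changes against astrocytes were -2.37 ± 0.19 in day 6 cells (adjusted p = 5.65e-07), -3.98 ± 0.21 in neural stem cells (adjusted p = 3.96e-08) and -2.83 ± 0.21 in astrocyte iPSCs (adjusted p = 3.15e-07). Day 6 cells were above neural stem cells by 1.61 ± 0.21 (adjusted p = 8.53e-05).

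Itga7, the laminin receptor subunit of muscle, was at 8.66, 8.72 and 8.69 in astrocytes. Elsewhere it was at 6.69, 6.67 and 6.57 (day 6), 6.49 and 6.41 (neural stem cells), 6.17 and 6.32 (astrocyte iPSCs) and 6.41 and 6.56 (MEF iPSCs). Only the astrocyte arrays were well above their medians. It fell by 2.05 ± 0.07 in day 6 cells (adjusted p = 6.39e-10), 2.24 ± 0.08 in neural stem cells (adjusted p = 1.66e-09) and 2.45 ± 0.08 in astrocyte iPSCs (adjusted p = 3.84e-10).

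Subunits that recognise the RGD sequence of fibronectin, vitronectin and latent TGF-beta numbered 8, of which 4 fell (10.1% of all genes did) and 0 rose (6.75% of all genes did) in day 6 cells against astrocytes by limma, with the same count of 4 at an unadjusted p under 0.05. Itgb8, which with Itgav binds latent TGF-beta and is known from glia and neural progenitors, had the widest range of all 36 genes. Astrocytes were at 11.45, 11.25 and 11.25 and neural stem cells at 9.60 and 9.91. Day 6 cells were at 6.00, 6.03 and 6.16, astrocyte iPSCs at 6.14 and 6.33, and MEF iPSCs at 6.00 and 6.16. It was therefore high in both neural groups and below the array medians in the day 6 cells and iPSCs. Day 6 cells were lower than astrocytes by 5.25 on the log2 scale (-5.25 ± 0.10, a 38.1-fold difference, adjusted p = 1.23e-11) and stood at -3.69 ± 0.11 from neural stem cells (adjusted p = 9.33e-10). The change in neural stem cells against astrocytes was -1.56 ± 0.11 (adjusted p = 3.67e-07).

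Itgav, the alpha partner of Itgb8, Itgb5 and other beta subunits, was at 11.90, 12.06 and 11.94 in astrocytes, 9.79, 9.76 and 9.59 in day 6 cells, 10.39 and 10.39 in neural stem cells, 9.12 and 9.26 in astrocyte iPSCs, and 9.30 and 9.15 in MEF iPSCs. It stayed far above the array medians everywhere. The changes against astrocytes were -2.25 ± 0.08 (day 6, adjusted p = 8.18e-10), -1.58 ± 0.09 (neural stem cells, adjusted p = 5.44e-08) and -2.77 ± 0.09 (astrocyte iPSCs, adjusted p = 3.88e-10). Itgb5, a vitronectin receptor subunit, was at 10.90, 10.90 and 10.83 in astrocytes. It was at 9.72, 9.69 and 9.63 in day 6 cells, 9.81 and 9.23 in neural stem cells, 9.21 and 9.39 in astrocyte iPSCs, and 9.22 and 9.19 in MEF iPSCs. Astrocytes alone stood apart, with changes of -1.20 ± 0.12 (adjusted p = 3.82e-06), -1.36 ± 0.13 (adjusted p = 4.94e-06) and -1.58 ± 0.13 (adjusted p = 8.60e-07) in the same 3 comparisons.

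Itga5, the fibronectin receptor subunit, had its lowest mean in day 6 cells, at 7.64 ± 0.13 (SD, n = 3), against 8.68 ± 0.26 (n = 3) in astrocytes, 7.91 ± 0.26 (n = 2) in neural stem cells, 8.83 ± 0.03 (n = 2) in astrocyte iPSCs and 8.80 ± 0.12 (n = 2) in MEF iPSCs. It fell against astrocytes by 1.05 ± 0.13 (adjusted p = 3.30e-05), a call lost without astrocytes replicate 2 (-0.92) or day 6 replicate 2 (-0.99). Itga5 was higher in astrocyte iPSCs than in day 6 cells by 1.19 ± 0.15 (adjusted p = 8.59e-05). The other RGD subunits, Itga8, Itga2b, Itgb3 and Itgb6, were called in no comparison. Of 5 markers of platelets, whose receptor is made of Itga2b and Itgb3, 1 was above the median in each array, and 0 were called in any comparison of limma's fit (0 to 1 at an unadjusted p under 0.05).

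Among the collagen receptor subunits Itga1, Itga2, Itga10 and Itga11, Itga1 fell in day 6 cells. It pairs with Itgb1 and binds collagen of basement membranes. Its levels were 11.19, 10.91 and 10.78 in astrocytes and 6.20, 6.15 and 6.12 in day 6 cells. Neural stem cells were at 6.79 and 6.85, astrocyte iPSCs at 6.45 and 7.16, and MEF iPSCs at 6.67 and 6.50. Day 6 cells were the lowest and only astrocytes were far above the array medians. The changes against astrocytes were -4.81 ± 0.16 (day 6, adjusted p = 5.62e-10), -4.14 ± 0.17 (neural stem cells, adjusted p = 7.62e-09) and -4.15 ± 0.17 (astrocyte iPSCs, adjusted p = 3.40e-09). Itga2, a collagen receptor subunit known from platelets and epithelia, was highest in neural stem cells, at 7.68 and 7.24. Astrocytes were at 6.55, 6.55 and 6.87, day 6 cells at 6.21, 6.34 and 6.34, astrocyte iPSCs at 5.99 and 6.06 and MEF iPSCs at 6.11 and 6.26. It was lower in day 6 cells than in neural stem cells (-1.17 ± 0.13, adjusted p = 2.96e-05), a call lost without neural stem cell replicate 1 (-0.95). Against astrocytes, neural stem cells were at 0.81, and at 1.03 without neural stem cell replicate 2, where it was called.

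The windows of Itgb8 and Itga1 are printed because these genes had the largest falls. The Itgb8 window is chr12:119238227-119238526 on the minus strand and the Itga1 window chr13:115101915-115102214 on the minus strand, read 5′ to 3′ with the same marks.
Itgb8: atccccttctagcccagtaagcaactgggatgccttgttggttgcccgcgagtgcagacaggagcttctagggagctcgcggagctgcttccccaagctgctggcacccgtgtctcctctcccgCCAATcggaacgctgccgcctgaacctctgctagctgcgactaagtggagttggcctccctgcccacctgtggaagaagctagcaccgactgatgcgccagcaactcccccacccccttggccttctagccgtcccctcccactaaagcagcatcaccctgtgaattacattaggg
Itga1: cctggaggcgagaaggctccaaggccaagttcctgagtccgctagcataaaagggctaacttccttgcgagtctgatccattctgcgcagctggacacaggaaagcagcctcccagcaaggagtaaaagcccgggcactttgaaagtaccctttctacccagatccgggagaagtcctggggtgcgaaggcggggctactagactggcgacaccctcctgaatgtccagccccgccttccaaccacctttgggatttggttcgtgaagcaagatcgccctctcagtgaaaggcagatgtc
The Itgb8 window held 1 CCAAT box and a GC content of 60.7%, and the Itga1 window 0 of the 5 motifs and a GC content of 56.7%.

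**Figure D2:**
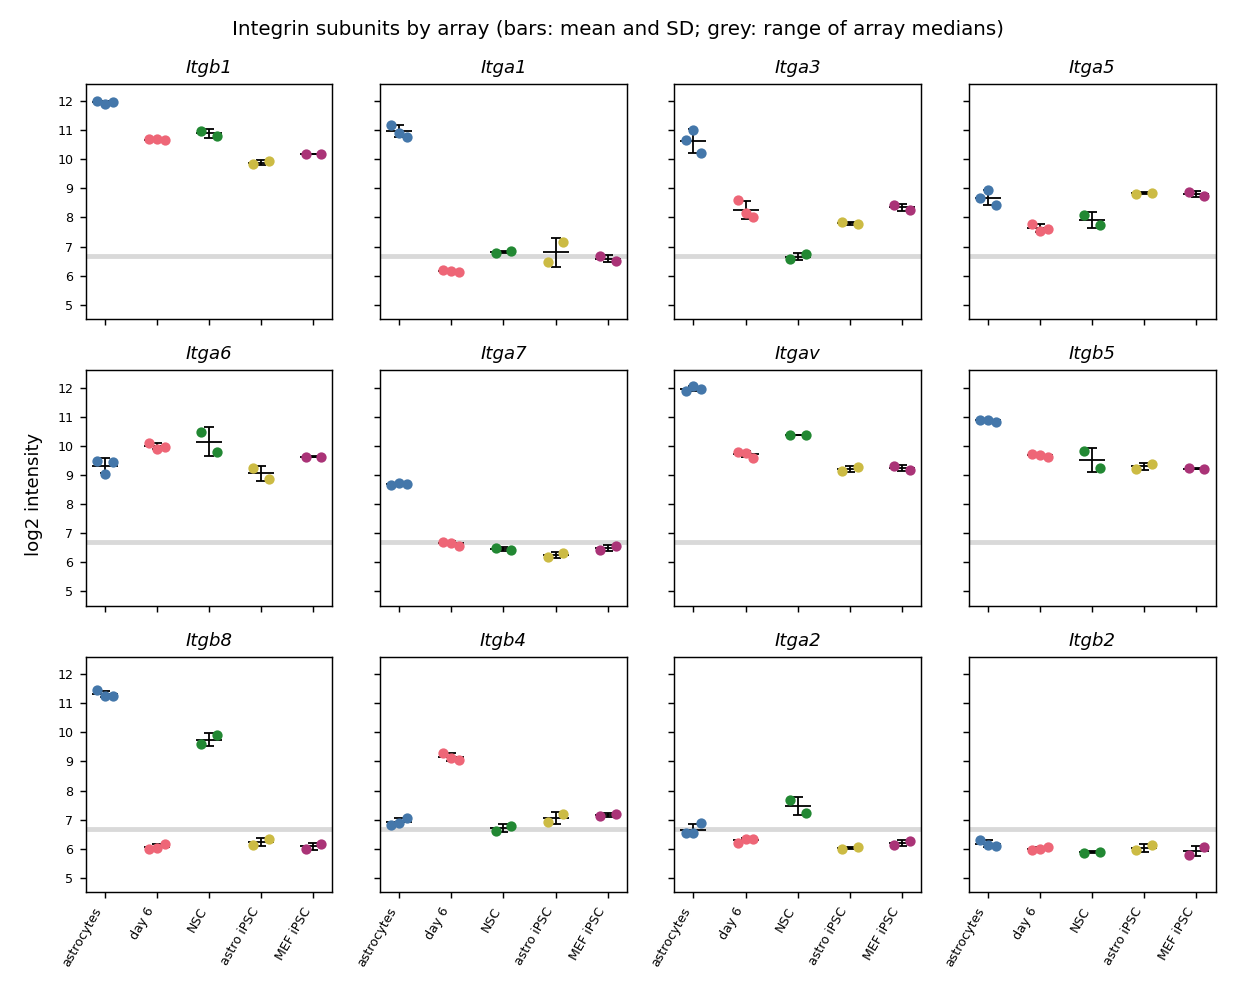
Log2 intensity (vertical axis) of 12 integrin subunits in each array (points), with group mean and SD (bars) and the range of array medians (grey band). Itgb8 is high in astrocytes and neural stem cells, Itgb4 in day 6 cells, and Itga1 and Itga7 in astrocytes, while the leukocyte subunit Itgb2 lies below the band throughout.

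Leukocyte subunits and the related Itga4 and Itga9 made up 9 genes, and none was called in the 6 comparisons of the limma fit (0 higher and 0 lower in each). Of all genes, 0.742% to 20.8% were called in these comparisons, so nothing particular to these 9 is read from the count. At an unadjusted p under 0.05, 1 to 4 of the 9 passed in each comparison. Their levels over all arrays lay between 5.20 and 7.19. Itgam and Itgb2, which form the complement receptor of microglia and macrophages, had means of 5.75 ± 0.14 and 6.17 ± 0.12 (SD, n = 3) in astrocytes. Of 13 leukocyte and microglia markers, 3 to 8 were above the array median in astrocyte arrays, 2 to 3 in day 6 arrays and 0 to 1 in neural stem cell arrays. Their summed intensity was 1095 to 1485 in astrocytes, 1180 to 1218 in day 6 cells and 842 in both neural stem cell arrays, and the median difference of day 6 cells from astrocytes was -0.45. At an unadjusted p under 0.05, 9 of the 13 passed, of which 1 was higher in day 6 cells. Laptm5 was the 1 called (higher) and 0 were called lower by limma, and C1qa was at 7.03 to 7.59 in astrocytes and 6.40 to 6.47 in day 6 cells. Ptprc, which defines leukocytes, was below the median in every array. Itga4, which binds fibronectin and Vcam1, varied most in this class. It was at 7.19 and 6.52 in neural stem cells, and it was called there against astrocytes only without their replicate 2 (1.06). For Itgad the other probe set lay between 5.80 and 6.03 over the arrays.

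Against neural stem cells, 7 of the 36 genes were called in day 6 cells (19.4%, against 8.88% of all genes). The 5 that were higher (13.9%, against 2.94% of all genes) were Lama4, Itgb4, Lamb1, Itga3 and Lamc1. The 2 that were lower, 5.56% against 5.94% of all genes, were Itgb8 and Itga2. Laminins made up 3 of the 5 higher genes, and the median of the 10 laminins was 0.64, against 0.07 over all genes. All 5 laminin alpha chains had positive differences, between 0.39 and 3.59, and 1 of them was called. In neural stem cells against astrocytes 10 of the 36 were called (27.8%, against 14.6% of all genes), with 0 higher in limma's fit (6.49% of all genes were; 4 of the 36 at an unadjusted p under 0.05) and 10 lower (8.1% of all genes were). These were Itga1, Itga3, Lamb2, Itga7, Lama5, Itgav, Itgb8, Itgb5, Lama2 and Itgb1. Itga2, Itga4 and Itga6 passed upward without neural stem cell replicate 2.

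In astrocyte iPSCs against day 6 cells 5 of the 36 genes were called (13.9%, against 6.11% of all genes), 2 of them higher (5.56%, against 3.29% of all genes) and 3 lower (8.33%, against 2.82%). Itga5 and Lama1 rose, and Lama4, Itgb4 and Lamb2 fell. Without iPSC replicate 1 the count was 8, with Itga1, Itga6 and Lamb1 added, and without replicate 2 it was 4. Against astrocytes, whose arrays enter several of these comparisons, 10 were called in the iPSCs (27.8%, against 20.8% of all genes). Lama1 and Lamb1 were the 2 higher (5.56%, against 9.44%), and 8 were lower (22.2%, against 11.4%). The 8 were Itgb8, Itga1, Lamb2, Itga3, Itgav, Itga7, Itgb1 and Itgb5. The largest was Itgb8, at -5.08 ± 0.11 (adjusted p = 3.38e-11).

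**Figure D3:**
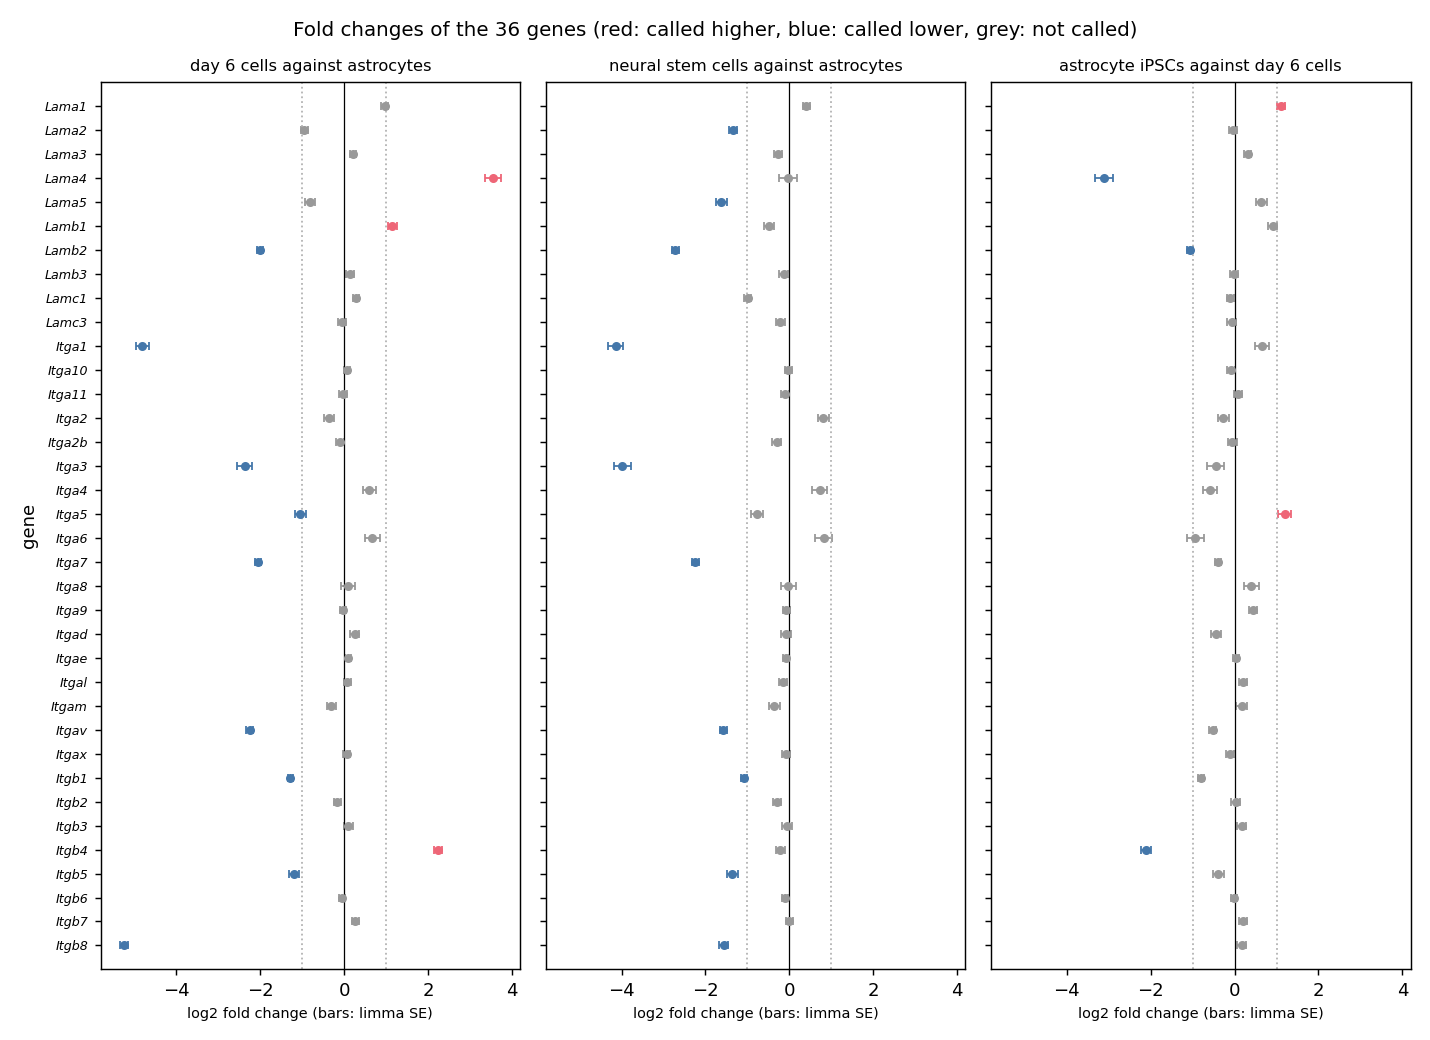
Log2 fold change (horizontal axis, bars are limma standard errors) of the 36 genes in day 6 cells against astrocytes, neural stem cells against astrocytes and astrocyte iPSCs against day 6 cells, red where called higher, blue where called lower and grey where not called, with dotted lines at the fold limit of 1. Lama4 and Itgb4 are called higher in day 6 cells than in astrocytes and lower in astrocyte iPSCs than in day 6 cells, and neural stem cells have no gene called higher than in astrocytes.

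The iPSC groups differed in 1 of the 36 genes (2.78%, against 0.742% of all genes). Among all genes, the share called was 0.461% in the higher and 0.281% in the lower direction. Lama1 was lower in astrocyte iPSCs than in MEF iPSCs, with a difference of -1.19 ± 0.10 (adjusted p = 5.62e-05), with means of 8.52 ± 0.15 and 9.71 ± 0.00 (SD, n = 2 each). Lamb1 differed by -0.48 ± 0.12 (adjusted p = 0.043) and Lama5 by 0.50 ± 0.15 (adjusted p = 0.0824), inside the fold limit. The astrocyte iPSC arrays also differed from each other in Lama4 (0.96 higher in replicate 2), Itga1 (0.71) and Itga8 (0.67), a kidney and mesenchyme subunit. All other members differed by less than 0.5, and 1.21% of all genes were higher by more than 0.5 in replicate 2. Of 11 fibroblast and feeder markers, 11 were higher in replicate 2, by a median of 0.75. Of these markers 9 were called higher in astrocyte iPSCs than in day 6 cells. The summed marker intensity was 4240 and 7439 in these arrays, against 3726 to 3947 in MEF iPSCs, 1276 to 1346 in day 6 cells and 9900 to 10691 in astrocytes. The astrocyte sum is mostly that of Ogn and Thy1, at 12.12 to 12.37 and 11.70 to 11.87. The part of feeder cells in the iPSC levels was not tested. Without replicate 1, Itga8 was called higher in astrocyte than in MEF iPSCs (1.05) and Itga1 higher than in day 6 cells (1.01). Without replicate 2 the values were 0.38 and 0.30, not called.

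**Figure D4:**
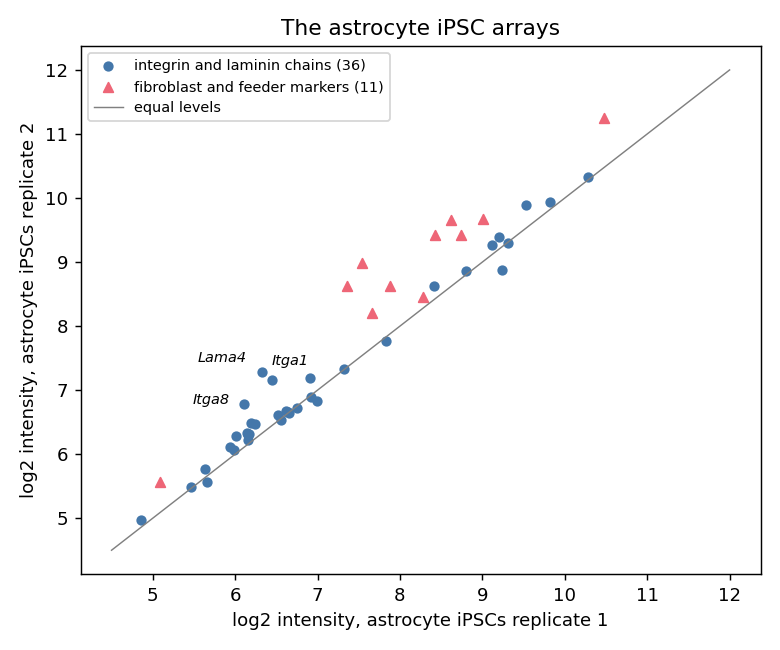
Log2 intensity in replicate 1 (horizontal axis) against replicate 2 (vertical axis) of the astrocyte iPSCs for the 36 genes (circles) and 11 fibroblast and feeder markers (triangles), with the line of equal levels. All 11 markers lie above the line, as do Lama4, Itga1 and Itga8 among the named genes.

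In all, 17 of the 36 genes were called in at least 1 of the 6 comparisons. The other 19 were 16 integrins and the laminins Lama3, Lamb3 and Lamc3, and 13 of the 36 had group means within 0.5 of each other. The matching shares over all genes were not counted, so nothing particular to the 36 is read from these counts. Of the 36, 26 were above the array median in at least 2 arrays. Of the 16 genes with the widest range of group means, 10 had the highest mean in astrocytes, 3 in MEF iPSCs, 2 in day 6 cells and 1 in neural stem cells. Over all 36 genes the counts were 13 in astrocytes, 9 in MEF iPSCs, 6 in astrocyte iPSCs, 5 in day 6 cells and 3 in neural stem cells. The same tally was not made over all genes. Spread between arrays of a group was small, with a median SD of 0.10 over genes and groups. The widest was that of Lama4 in astrocyte iPSCs, at 0.68.

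Genes that work with these receptors and chains were counted from 5 lists, to be read beside the shares of all genes given above. Of 26 other basement membrane and laminin-binding genes, 3 rose and 9 fell in day 6 cells against astrocytes (median -0.41), led by Npnt, the ligand of Itga8 (-2.72 ± 0.19), Sparc, a collagen-binding matrix protein (-2.43 ± 0.18), and Nid2, which links laminin to collagen (-2.36 ± 0.08). In astrocyte iPSCs against astrocytes 5 rose and 8 fell (median -0.24), with Npnt (-3.77 ± 0.22), the laminin-binding netrin Ntn4 (-2.81 ± 0.11) and the collagen chain Col4a6 (-2.30 ± 0.10) first. Integrin ligands outside the basement membrane fell in 11 of 23 in day 6 cells, with 0 higher in limma's fit (0 at an unadjusted p under 0.05; median -0.69). Tnc, tenascin C, was at -5.44 ± 0.08, Thbs1, thrombospondin, at -4.42 ± 0.12 and Fn1, fibronectin, at -2.46 ± 0.12. In the iPSCs 4 rose and 9 fell (median 0.22), and Thbs1 (-3.03 ± 0.13), Vcam1, the Itga4 ligand (-2.91 ± 0.16), and Ccn2, a matricellular protein (-2.22 ± 0.24), led. Col1a1, Col1a2, Col3a1 and Postn of this list, and Fbln2 of the basement membrane list, are also fibroblast and feeder markers. The part of feeder cells in the iPSC counts was not tested.

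Adaptors inside the cell fell in 8 of 25 at day 6, with 0 higher in limma's fit (2 at an unadjusted p under 0.05; median -0.48). The largest changes were in Actn1, an actin crosslinker (-2.51 ± 0.09), Tln2, a talin that binds integrin tails (-2.08 ± 0.07), and Parva, a partner of Ilk (-1.99 ± 0.11). In astrocyte iPSCs against astrocytes 2 rose and 8 fell (median -0.54). Parva (-3.19 ± 0.13) and the adaptor Ilk (-2.09 ± 0.14) fell there, and Fermt1, the kindlin of epithelia, rose by 2.38 ± 0.17. Tetraspanins and other partners had 1 higher and 9 lower of 15 at day 6 (median -1.13), with the caveolar protein Cav1 at -4.33 ± 0.26 and the syndecans Sdc4 and Sdc3 at -3.20 ± 0.10 and -2.83 ± 0.15. In iPSCs 1 rose and 11 fell (median -1.56), led by Sdc2 (-3.44 ± 0.14), Sdc4 (-2.70 ± 0.11) and Cav1 (-2.52 ± 0.30). Of 14 laminin and collagen processing and glycan genes, 4 fell and 0 rose at day 6 in limma's fit (1 higher at an unadjusted p under 0.05; median -0.65), among them the collagen hydroxylase P4ha1 (-2.51 ± 0.13) and the proteases Mmp14 (-1.79 ± 0.17) and Bmp1 (-1.73 ± 0.12). In iPSCs 2 rose and 4 fell (median -0.74), with P4ha1 at -2.71 ± 0.15, the protease Mmp2 at 1.99 ± 0.32 and Large2, which extends the laminin-binding glycan of dystroglycan, at 1.73 ± 0.10.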

How the data were processed

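RNA was hybridised to 12 GeneChip Mouse Gene 1.0 ST arrays. Per the submitters' processing notes the authors used RMA (robust multi-array average), and they deposited an intensity for each probe set. The version and genome build are not given in the sources used here. The intensity values are linear with none under 20.2, and log2 was taken first. Of 28853 probe sets, 21789 carry 1 gene symbol, 1621 several and 5443 none in the platform annotation. The brightest probe set by mean log2 stood for each of 19938 genes.

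Fits used limma 3.58.1 in R 4.3.3 on all genes, with a mean for each of the 5 groups and 10.9 degrees of freedom in all, of which 7 were residual. Groups came from the titles, and no arrays were identical (correlation within groups 0.991 to 0.996). The members and lists were chosen with earlier results of these data known. Values in every array are given for the 16 members with the widest range of group means, and from each list up to 3 called genes with the largest change in the comparisons of day 6 cells and of astrocyte iPSCs with astrocytes. Some list symbols were updated through RefSeq synonyms. In simulated data with known changes, each comparison recovered 92% to 100% of genes changed by 1.25, 1.5, 2 or 3 on the log2 scale. Among the genes given no change there was at most 1 false call, and such a call also had to pass the fold limit. All simulated sizes were above the fold limit of 1, the noise was normal and independent, and no other gene changed. The simulation checks that the fit runs as intended and does not bear on calls near that limit. The alternatives were cyclic loess, median centring, a filter on dim genes, the mean of probe sets, trend and robust eBayes, a replicate block, 16 subtracted before log2, an adjusted p under 0.01, and leaving out each array. Windows near start sites were searched for 5 motifs. Tables and figures were made in Python 3.11.15 with numpy 2.4.6, pandas 2.3.3 and matplotlib 3.10.9. The number of arrays limits the precision.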

Additional observations from a re-analysis of the deposited data

How the results depend on the processing

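The number of the 36 genes called was 12 for day 6 cells against astrocytes, 7 for day 6 cells against neural stem cells, 5 for astrocyte iPSCs against day 6 cells, 1 between the iPSC groups, 10 for neural stem cells against astrocytes and 10 for astrocyte iPSCs against astrocytes. Leaving out each array in turn gave 11 to 13, 7, 4 to 8, 1 to 2, 10 to 13 and 10 to 11, in that order. Under the other 8 alternatives every count stayed within 1.5 times, and the highest were 14 for day 6 cells against astrocytes and 11 in the last 2 comparisons. Of 45 calls of single genes, 41 held under all alternatives and arrays left out, 4 were lost under at least 1, and 0 changed sign. With the replicate number as a block the counts were 12, 7, 5, 1, 11 and 11, the added calls being Lamc1 in neural stem cells against astrocytes (-1.01) and Lama2 in astrocyte iPSCs against astrocytes (-1.03). Deviations from the group mean of same-numbered astrocyte and day 6 arrays correlated at 0.41, -0.01 and 0.22. For differently numbered arrays, astrocyte replicate 1 correlated with day 6 replicates 2 and 3 at -0.17 and -0.27. Astrocyte replicate 2 correlated with day 6 replicates 1 and 3 at -0.02 and 0.03. For astrocyte replicate 3 the values with day 6 replicates 1 and 2 were -0.37 and 0.16. MEF iPSC replicate 1 correlated with replicate 1 of astrocytes at 0.40 and of day 6 cells at 0.41, and for replicate 2 the values were 0.06 and 0.19. With so few arrays these values cannot settle whether the numbers pair the samples, and no label says that they do. Cyclic loess moved the median of all genes by at most 0.08 in size (-0.08), but it shifted the balance of calls over all genes. The higher share of called genes went from 40.1% to 31.2% in day 6 cells against astrocytes. It went from 45.3% to 37.9% in astrocyte iPSCs against astrocytes, and from 53.9% to 55.1% in astrocyte iPSCs against day 6 cells. Probe sets near or under the array median, such as those of the leukocyte subunits, may hide low expression, and a fold change toward that level understates the difference.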
